A study of Mus musculus with 469 samples.

Results

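Mouse olfactory epithelium renews its sensory neurons throughout life, and the cells described here were sorted from it for a green reporter of Neurog1 and then divided by how much odorant receptor RNA they held. Single cells had been captured on the Fluidigm C1 system and their polyadenylated RNA sequenced. The Neurog1-eGFP sorts of 61, 51 and 26 cells made up 29.4% of the cells in the series, and 46, 48 and 25 of them had at least 1000 genes at a value of 1 or more. Each value was expressed as CPM, the share of a cell's deposited total times 10 to the power of 6, and CPM was summed over all gene symbols made of Olfr and a digit. A sum of 1000 CPM or more put 60 cells in a receptor-high class, a sum below 100 CPM put 31 cells in a receptor-low class, and 28 cells lay between. The 91 cells of the receptor-high and receptor-low classes were 19.4% of the series. The classes were thus selected on receptor signal, so receptor levels below describe the selection and are not a result of it.

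The mice were 8 weeks old, of the strain FVB Neurog1-eGFP with the genotype Neurog1-eGFP+. The 3 sorts came from uninjured epithelium (46 cells after the gene filter), from epithelium 5 days after removal of the olfactory bulb (48 cells) and from epithelium 14 days after it (25 cells). Removal of the bulb kills the mature neurons whose axons it severs and is followed by new neuron production. The reporter can outlast Neurog1 transcription and so also mark the progeny of the progenitors. The labels named no animal, so each sort was treated as 1 sample. No test over cells was made, and intervals on shares of cells cover counting error only.

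In this lineage globose basal cells give rise to immediate neuronal precursors, which carry the proneural factors Neurog1 and Neurod1. Their daughters become immature neurons that extend an axon, with Gap43 and Gng8 as markers, and later mature neurons with Omp and the odor transduction machinery. Each neuron settles on a single odorant receptor gene, and Lhx2 and the Ebf factors bind the enhancers and promoters of receptor genes. A receptor protein that reaches the endoplasmic reticulum sets off the unfolded protein response, which helps to fix the choice.

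Receptor-high cells made up 47.8% of the uninjured sort (22 of 46 cells, exact Clopper-Pearson 95% interval 32.9 to 63.1%). The share was 45.8% at 5 days (22 of 48, 31.4 to 60.8%) and 64% at 14 days (16 of 25, 42.5 to 82%). The intervals overlapped, and no difference between sorts was detectable with these numbers of cells. Receptor-low cells numbered 10, 14 and 7 in the same order, and cells between the limits 14, 12 and 2. Each library was counted as a separate cell throughout, although some were closely alike. At 5 days 2 receptor-low libraries had Sox11 at 13358 and 11871, Ebf2 at 2386 and 2123 and Neurod1 at 2990.5 and 2540.8 CPM. Another 2 at 5 days, between the limits, were both led by Olfr66. They had Ebf2 at 2853 and 2943 CPM but Neurod1 at 0 and 3037 CPM. Whether such pairs were copies of a single cell was not tested, and the intervals take no account of it. Next to the lower limit the sums were 74.8, 86.6 and 94.6 CPM below it and 119.7, 120.3 and 191.9 CPM above it. Next to the upper limit they were 909.6, 909.7 and 961 CPM below it and 1019, 1054 and 1060 CPM above it, so neither limit fell in a wide gap.

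**Figure D1:**
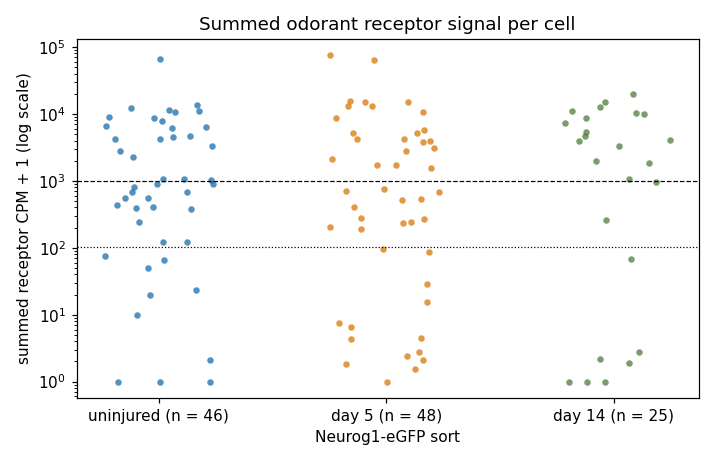
Summed odorant receptor signal (CPM + 1, log scale) in each Neurog1-eGFP cell with at least 1000 genes, by sort. Each point is 1 cell, the dashed line marks 1000 CPM and the dotted line 100 CPM; cells of the uninjured, 5-day and 14-day sorts spread from 0 CPM to 66856, 75462 and 20160 CPM, with cells on both sides of each limit.

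Most receptor-high cells were dominated by 1 receptor gene. The summed signal ran from 1019 CPM through a median of 5537 CPM to 75462 CPM, and the leading receptor held a median of 97.8% of it. In 37 of 60 cells the leading receptor held at least 90% of the receptor signal, and in 23 cells at least 99%. A single receptor gene reached 50 CPM in 20 cells, 2 did so in 16 cells, and 3 or more did so in 24 cells, with a maximum of 9. Cells between the limits had a lower median share for the leading receptor, 72.5%, with 1 receptor in 11 cells, 2 in 10 cells and 3 or 4 in 7 cells. Among receptor-low cells, 26 of 31 had no receptor at 50 CPM and 5 had 1. How reads that match several near-identical receptor genes were counted is not given in the sources used here, so a receptor's share of a cell is uncertain where close copies exist.

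The leading receptors were diverse. The 60 cells were led by 54 different receptor genes, of which 48 led 1 cell and 6 led 2 cells each (Olfr118, Olfr1312, Olfr1352, Olfr1372-ps1, Olfr16 and Olfr777). Olfr16, a class II receptor known for its response to lyral, reached 64735 and 66856 CPM in 2 cells of different sorts, and Olfr944 reached 74472 CPM in another. Olfr1372-ps1, named as a pseudogene, was present at 50 CPM or more in the largest number of cells, 6 receptor-high, 3 between the limits and 1 receptor-low.

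Promoter windows from RefSeq (build GRCm38.p6, not the mm9 build of the deposited tables) were available for 39 of the 54 leading receptors. In 29 of the 39 the annotated start was a start codon, so the window lay before the coding sequence, not before a transcription start. The same held for 72.4% of the windows of all Olfr genes. The 250 bases before the start were searched on both strands for the Ebf core CCCNNGGG and the homeodomain core TAATTA, which is the kind of site Lhx2 binds. The Ebf core was found in 0 of the 39 windows. It was found in 2.74% of 948 windows of all Olfr genes and in 11.8% of 32851 windows of all genes. Among Olfr windows whose start was not a start codon, the Ebf core was found in 7.25%. The 2.74% is therefore not read as a share of receptor promoters. Of the leading receptors, 10 had such a window and 0 of the 10 held the Ebf core, too few to show a difference. The homeodomain core was found in 7 of the 39 (17.9%), in 18% of all Olfr windows and in 4.84% of all windows. By that count the leading receptors were close to receptor genes in general. Among windows whose start was not a start codon, the homeodomain core was in 1 of the 10 leading receptors, Olfr77. It was in 17.6% of such Olfr windows, and 10 windows are again too few to show a difference. The windows of 2 leading receptors whose start was not a start codon are shown, Olfr16 (chr1:172956518-172956767, plus strand) for its level and Olfr77 (chr9:19916979-19917228, plus strand, 13021 CPM in 1 cell) for its 3 homeodomain cores, which are in capitals.
Olfr16: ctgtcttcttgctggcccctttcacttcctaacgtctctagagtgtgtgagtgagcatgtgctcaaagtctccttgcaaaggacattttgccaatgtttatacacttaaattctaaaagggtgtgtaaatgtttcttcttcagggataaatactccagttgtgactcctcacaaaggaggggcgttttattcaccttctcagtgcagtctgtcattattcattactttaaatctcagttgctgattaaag
Olfr77: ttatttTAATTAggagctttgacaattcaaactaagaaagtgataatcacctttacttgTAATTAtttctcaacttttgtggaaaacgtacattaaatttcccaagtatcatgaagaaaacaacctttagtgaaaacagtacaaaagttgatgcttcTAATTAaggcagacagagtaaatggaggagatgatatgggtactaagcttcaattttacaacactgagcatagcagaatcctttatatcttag

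The depth differed somewhat between the classes. Fragments per cell, recovered from the smallest step of each cell's values, ran from 77284 to 2184319, with medians of 842740 in receptor-high, 965380 in intermediate and 1119190 in receptor-low cells. Genes per cell had medians of 2939, 2822.5 and 2792. Shares of cells with a gene are therefore given at 10 CPM or more and again after each cell was thinned to 75000 fragments, as the share with at least 1 fragment. No cell was removed as a possible doublet, and the number of cells per capture site could not be checked.

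The receptor-high class was compared with the receptor-low class in genes other than Olfr, to describe the onset of receptor expression. The measure was the log2 ratio of mean CPM + 1 within each sort, averaged over the 3 sorts with equal weight and given with the SD over sorts (n = 3). A gene was called where the ratio was at least 1, or at most -1, in each of the 3 sorts. Of 7812 genes with a mean of at least 10 CPM, 6.31% were called higher and 2.91% lower, the median ratio of all was 0.29, and 58.5% of all were above 0. These calls rest on 7 to 22 cells per class and sort and on genes that many cells lacked. When the mean of log2(CPM + 1) was compared in place of the mean of CPM, 2.28% of the genes were called higher and 1.79% lower. These sets held 76 of the genes first called higher (15.4% of them) and 57 of those first called lower (25.1%), and the median of all genes was -0.05. In simulated cells the same rule called a share of unchanged genes not far below the share called here, and it missed many genes that had been given a difference. The shares called are therefore not read as a number of differing genes, single calls carry little weight, and levels per cell, shares of cells and whole gene lists are given below.

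The cells carried the markers of the lineage, but the markers did not all follow the receptor signal. Ebf2, a factor that binds receptor enhancers, ran from 2.96 through a median of 3729 to 16625 CPM in receptor-high cells and from 1.76 through 3921 to 11331 CPM in receptor-low cells. The classes overlapped almost completely, with 98.3% and 96.8% of cells at 10 CPM or more and a mean log2 ratio of -0.05 ± 0.11. Lhx2, the homeodomain factor needed for receptor choice, had medians of 188.8 CPM in receptor-high, 487 CPM in intermediate and 850 CPM in receptor-low cells, with 90% and 90.3% of high and low cells at 10 CPM or more. The log2 ratio of Lhx2 was below 0 in each sort, with a mean of -1.07 ± 0.73, and the ranges overlapped (0 to 4040 CPM against 0 to 3872 CPM). Gng8, which encodes a gamma subunit found in young olfactory neurons, had medians of 45.2 and 52.6 CPM and was present in 80% and 87.1% of cells. Lhx2, Ebf2 and Gng8 thus marked both classes, and none of them separated cells with receptor from cells without it.

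Beside 6.31% higher and 2.91% lower among all genes, 1 of the 8 measured receptor enhancer factors was called higher and 0 lower. Their median ratio was 0.12 beside 0.29 over all genes. Ebf4, another member of the Ebf family, was the one called, at 2.61 ± 1.14. It was at 10 CPM in 45% of receptor-high (32.1 to 58.4%) and 16.1% of receptor-low cells (5.5 to 33.7%), so the intervals overlapped. Without receptor-high cells of Omp at 100 CPM or more its ratio was 1.77 and the call was lost. Ebf1 and Emx2, a homeodomain factor, were highest between the limits. Median Ebf1 was 963 CPM in receptor-high, 2172 CPM in intermediate and 812 CPM in receptor-low cells, and median Emx2 was 40.6, 130 and 34 CPM. Gng8 had the same shape, with 96.3 CPM between the limits, as did Ebf2 with 5033 CPM. The intermediate class held only 2 cells at 14 days, and in the uninjured and 5-day sorts Ebf1 medians were 2033 and 2223 CPM between the limits against 842 and 740 CPM in receptor-high cells.

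Most genes of immediate neuronal precursors had ratios below 0. Of 9 measured members, 7 were below 0 and 2 above it, and 0 were called higher and 3 lower. Among all genes 41.5% were below 0, 6.31% were called higher and 2.91% lower. The median ratio of the list was -1.33, with -1.71 (uninjured), -0.45 (5 days) and -1.77 (14 days) in each sort. With means of log2 values all 9 members were below 0, with a median of -1.91. The size moved with the class limits, to -3.33 with receptor-high cells of 5000 CPM or more and to -0.49 with receptor-low cells below 10 CPM.

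Neurog1, the proneural factor whose reporter was sorted, had medians of 0 CPM in receptor-high, 12.4 CPM in intermediate and 35.1 CPM in receptor-low cells. It was at 10 CPM or more in 25% of receptor-high cells (14.7 to 37.9%) and 74.2% of receptor-low cells (55.4 to 88.1%). Thinning gave 26.7% and 71%. Its log2 ratio was -2.69 ± 0.86. Individual cells still overlapped, since receptor-high cells reached 579 CPM and receptor-low cells went down to 0.

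Nhlh2, a basic helix-loop-helix factor of differentiating neurons, had medians of 0, 130.7 and 330.9 CPM in the high, intermediate and low classes and a log2 ratio of -1.94 ± 0.82. It was present in 33.3% against 67.7% of high and low cells. Sox11, a factor of newly formed neurons, was in nearly every cell, with medians of 3952, 9599 and 10344 CPM. Its median was lower in receptor-high cells in each sort (1282 against 12440, 4518 against 7275 and 4540 against 14885 CPM), although its mean log2 ratio of -1.25 ± 0.71 missed the call at 5 days. Neurod1 was found in 15% against 38.7% of high and low cells (-1.77 ± 0.99). The related factor Nhlh1 differed little (medians of 49.4 and 63.2 CPM, -0.04 ± 0.19), as did the zinc finger factor Insm1, found in 46.7% and 54.8% of cells. Gadd45g, a stress and growth arrest gene, was called lower at -3.79 ± 0.49, but only 6.67% and 19.4% of cells had it.

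Beside 41.5% below 0 and 2.91% called lower among all genes, the 4 measured genes of globose basal cells were all below 0. Their median was -2.45, and 1 was called lower. That gene was Ezh2, the methyltransferase of Polycomb repressive complex 2, with medians of 13.1 CPM in receptor-high and 100.9 CPM in receptor-low cells and a ratio of -2.55 ± 0.25. Kit, the receptor for stem cell factor, was at 10 CPM in 12.9% of receptor-low cells and in 0 of 60 receptor-high cells. A count of 0 among 60 leaves room for up to 5% of cells, taken as 3 counts of the total. Of 12 genes of the G2 and M phases, 0 were called higher and 1 lower, beside 6.31% and 2.91% of all genes. The median of these 12 genes, -1.99, came mostly from the 14-day sort (-5.98), since the median was 0 in the other sorts. In the 7 receptor-low cells of the 14-day sort the summed level of the list was very uneven. It ran from 0 to 9517 CPM, with a median of 172.3 CPM and a mean of 2351 CPM, so the ratio leaned on few cells. S phase genes were mixed, with Mcm7 called higher (2.66 ± 0.46) and Mcm4 lower (-2.28 ± 1.19), both helicase subunits of replication. Neither call was stable, since Mcm7 was at 0.27 with receptor-high cells of 5000 CPM or more and at 0.52 with receptor-high cells of Tex15 below 100 CPM, and Mcm4 was at -0.59 with receptor-low cells below 10 CPM.

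Tex15, a gene of meiotic DNA repair, was 1 of the 2 members of the immediate precursor list with a ratio above 0. With means of log2 values Tex15 was below 0, as were the other members of that list. Its medians were 3.47 CPM in receptor-high, 1384 CPM in intermediate and 177.5 CPM in receptor-low cells, while the highest cells of the 3 classes reached 51104, 34857 and 33015 CPM. It was at 10 CPM or more in 45%, 82.1% and 61.3% of cells, and its log2 ratio of 0.59 ± 1.74 changed sign between sorts.

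Within the receptor-high class, Tex15 went with the number of receptors in a cell. It was at 100 CPM or more in 1 of 20 cells with 1 receptor, in 4 of 16 cells with 2 and in 18 of 24 cells with 3 or more. Its medians over these cells were 0, 4.02 and 2122 CPM. As a description over cells that share a sort, the Spearman correlation of Tex15 with the number of receptors at 50 CPM was 0.72 over 60 cells, and 0.73, 0.74 and 0.66 in the uninjured (22 cells), 5-day (22 cells) and 14-day (16 cells) sorts. Cells with more receptors had fewer fragments (Spearman -0.37, medians of 1339750, 934159 and 685176). With receptors counted as those with at least 1 fragment after thinning to 75000 fragments, the value for Tex15 was 0.61. That count does not use the limit of 50 CPM, and it put 37 cells at 3 or more receptors.

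The same correlation was computed for 6 other genes. Over the 60 cells the Spearman values were 0.36 for Ebf2, 0.21 for Lhx2, 0.20 for Neurog1, 0.10 for Gng8, -0.03 for Omp and -0.23 for Gap43. Gap43 had values of 0.18, -0.27 and -0.65 in the uninjured, 5-day and 14-day sorts. Ebf2 had values of 0.40, 0.11 and 0.65 and Neurog1 of 0.14, -0.13 and 0.52 in the same order, so that at 14 days Ebf2 was close to Tex15. Genes per cell did not go up with receptor number (medians of 2939, 3152 and 2798.5 for 1, 2 and 3 or more receptors). Whether some cells with several receptors were 2 cells in 1 capture site was not tested.

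**Figure D2:**
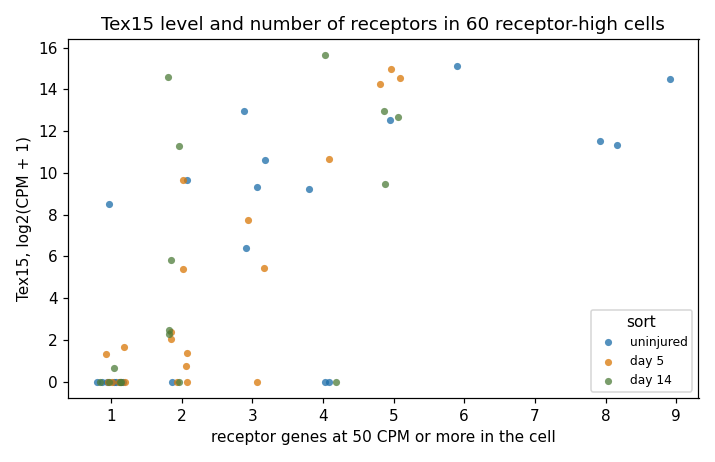
Tex15 level, log2(CPM + 1), against the number of odorant receptor genes at 50 CPM or more in each of the 60 receptor-high cells, coloured by sort, with points spread sideways for clarity. Cells with 1 receptor lie near 0 except 1 cell above 100 CPM, while 18 of the 24 cells with 3 or more receptors are at 100 CPM or more.

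Genes of chromatin silencing had a median ratio of -0.67. The medians by sort were 0.06 (uninjured), -0.12 (5 days) and -0.79 (14 days), so the list was clearly lower only at 14 days. Of 14 genes 2 were called lower and 0 higher, beside 2.91% lower and 6.31% higher among all genes. The 2 called lower were Polycomb subunits, Ezh2 and Eed (-2.54 ± 0.75, found in 15% and 35.5% of high and low cells). Cbx3, a heterochromatin protein 1 family member found in nearly all cells, had medians of 407.4 CPM in receptor-high and 677 CPM in receptor-low cells without reaching the call (-0.66 ± 0.43). Kdm1a, the demethylase Lsd1 that acts at the onset of receptor choice, differed little (-0.06 ± 0.74, found in 55% and 61.3% of cells). Smchd1, a chromatin protein that silences gene clusters, lay outside the lists and was picked after its values were seen. Its medians were 37.3 CPM in receptor-high, 803 CPM in intermediate and 2427 CPM in receptor-low cells, with a ratio of -2.38 that kept its call in each alternative run.

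Genes of immature neurons as a group barely differed. Of 13 genes 1 was called higher and 0 lower, beside 6.31% and 2.91% of all genes. The list's median was 0.43 beside 0.29 for all genes. Gap43, the growth cone protein, had medians of 728 CPM in receptor-high, 64.8 CPM in intermediate and 2.47 CPM in receptor-low cells. It was at 10 CPM or more in 75% of receptor-high (62.1 to 85.3%) and 45.2% of receptor-low cells (27.3 to 64%), and its ratio of 1.24 ± 0.36 was above 0 in each sort. Dcx, a microtubule protein of migrating neurons, had medians of 1044, 180.9 and 38.5 CPM. Crmp1, a mediator of semaphorin signals, was called higher at 2.27 ± 0.51. Stmn2, Tubb3 and Ncam1, general genes of young neurons, were in at least 90% of both classes, with ratios of 0.34, -0.22 and 0.75.

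Genes of mature neurons were higher in receptor-high cells. All 13 measured members had a ratio above 0, and 5 were called higher and 0 lower. Among all genes 58.5% were above 0, 6.31% were called higher and 2.91% lower. The list's median was 2.30, with 3.22, 1.11 and 3.50 in the uninjured, 5-day and 14-day sorts. The odor transduction list, which shares 7 genes with that list, had 6 of 12 called higher and 1 lower, with a median of 1.97.

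Gng13, the G protein gamma subunit of olfactory cilia, had medians of 120 CPM in receptor-high, 18.3 CPM in intermediate and 0 CPM in receptor-low cells. It was found in 81.7% (69.6 to 90.5%) and 41.9% (24.5 to 60.9%) of high and low cells, and its ratio was 2.16 ± 0.62. Cnga2, the main subunit of the olfactory cyclic nucleotide-gated channel, was found in 63.3% (49.9 to 75.4%) and 22.6% (9.6 to 41.1%) of cells, with a ratio of 1.89 ± 0.61. Gnal, the olfactory G protein alpha subunit, had medians of 494, 275.6 and 24.7 CPM in the high, intermediate and low classes and a ratio of 3.16 ± 2.53. For these genes the share intervals lay apart with Gng13 and Cnga2 and overlapped with Gnal.

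Cnga4 (4.90 ± 3.21), Ano2, the transduction chloride channel (3.91 ± 1.70), and Pde4a, a cyclic AMP phosphodiesterase (2.28 ± 0.37), were also called higher, but only 21.7%, 11.7% and 53.3% of receptor-high cells had them. Gnas, the ubiquitous stimulatory alpha subunit, was the gene called lower (-1.32 ± 0.22), with 38.3% against 71% of cells. Adcy3, the olfactory adenylyl cyclase, was found in 16.7% and 9.68% of cells and was not called.

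Omp, the olfactory marker protein, was found in 58.3% of receptor-high (44.9 to 70.9%) and 22.6% of receptor-low cells (9.6 to 41.1%), with median levels of 27.6, 0 and 0 CPM in the high, intermediate and low classes. Its ratio of 3.004 ± 3.62 was not called, since it was -0.57 at 5 days. In the uninjured sort median Omp in receptor-high cells was 1107 CPM, against 6.18 and 4.77 CPM at 5 and 14 days. Of the 60 receptor-high cells, 24 had Omp at 100 CPM or more. Without these cells the median ratio of the mature neuron list was 0.14 and that of the transduction list 0.14, Cnga4 and Pde4a were at -0.43 and -0.29, and Cnga2 (0.48), Gng13 (1.02) and Gnal (1.69) were no longer called. Omp belongs to the mature neuron list, so leaving out its high cells selects on that list and a lower median follows in part from the selection. The step left 7 of 22 receptor-high cells in the uninjured sort, 16 of 22 at 5 days and 13 of 16 at 14 days.

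Genes with a role at synapses and a few others were followed with and without the Omp-positive cells. Snap25, a synaptic vesicle fusion protein, had medians of 818 CPM in receptor-high, 13.5 CPM in intermediate and 3.57 CPM in receptor-low cells and was found in 85% (73.4 to 92.9%) and 45.2% (27.3 to 64%) of high and low cells. Its ratio was 1.48 ± 0.54, and 1.39 without Omp-positive cells, where it was no longer called. Homer2, a postsynaptic scaffold protein, was picked after its values were seen and had medians of 677, 236.4 and 2.30 CPM, with 91.7% (81.6 to 97.2%) and 45.2% of high and low cells. Its ratio was 2.23, and 1.21 without Omp-positive cells, where it was no longer called. Calb2 (calretinin), Serpine2, a protease inhibitor, and Rbms1, an RNA-binding protein, were picked in the same way, with ratios of 2.90, 3.34 and 3.43, and of 2.39, 2.19 and 3.60 without Omp-positive cells. Without those cells Calb2 and Rbms1 kept the call and Serpine2 lost it.

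**Figure D3:**
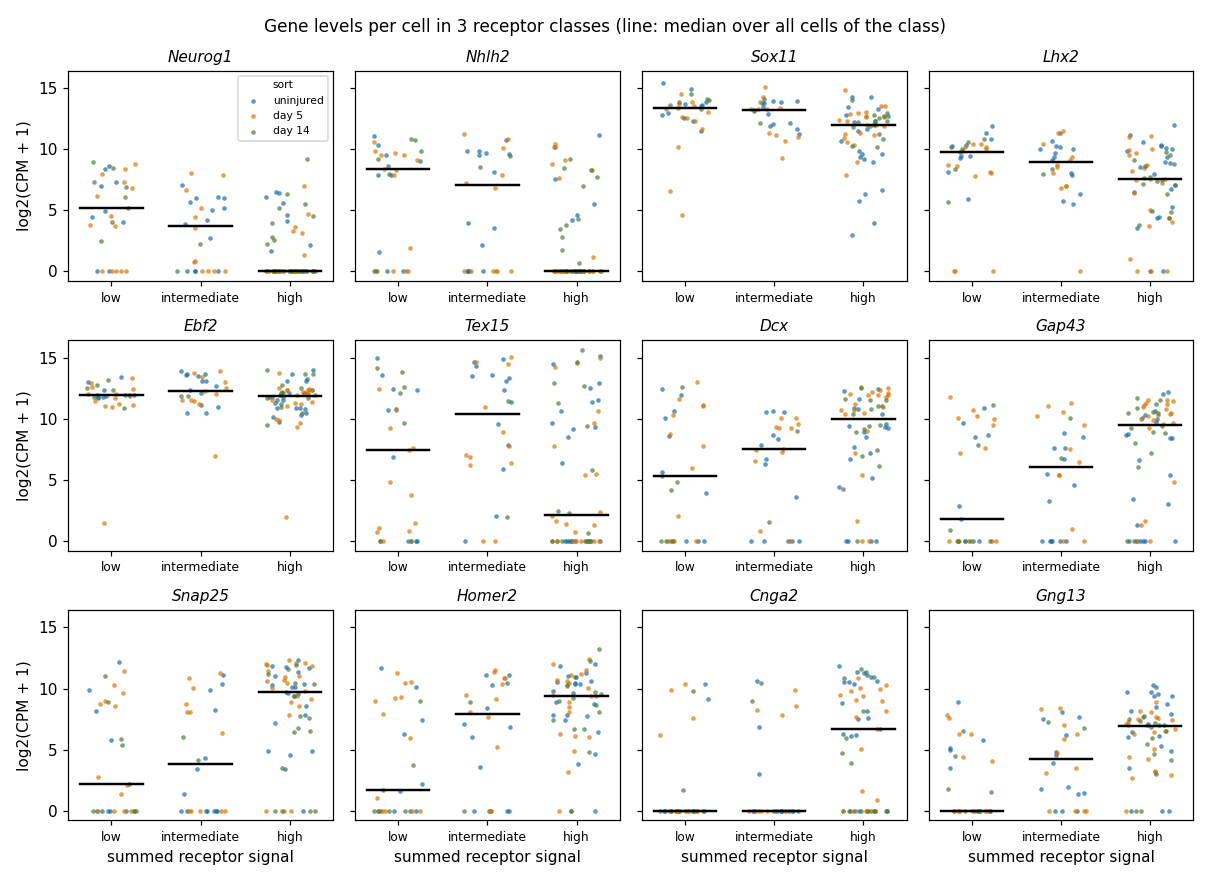
Level of 12 genes, log2(CPM + 1), in each of 31 receptor-low, 28 intermediate and 60 receptor-high cells, coloured by sort, with a line at the median of each class. Neurog1, Nhlh2, Sox11 and Lhx2 have lower medians in the receptor-high class, Ebf2 has similar medians in the receptor-low and receptor-high classes, Tex15 is highest between the limits, and the other genes have higher medians in the receptor-high class, with overlap between classes in every panel.

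The 4 receptor trafficking genes were all above 0, with a median of 1.28, and none was called. Rtp1 and Rtp2, chaperones that carry odorant receptors to the membrane, were found in 73.3% against 41.9% and in 60% against 29% of high and low cells. Their ratios were 1.11 ± 1.27 and 0.91 ± 0.06. Of 11 genes of the unfolded protein response, 10 were above 0, with a median of 0.80, and 1 was called higher. Among all genes 58.5% were above 0 and 6.31% called higher, so 1 call in 11 was near that share. That gene was Herpud1, a component of endoplasmic reticulum degradation (3.27 ± 1.64), with medians of 128.2 CPM in receptor-high and 3.15 CPM in receptor-low cells. Atf5, the translationally controlled factor of receptor feedback, was found in 88.3% (77.4 to 95.2%) of receptor-high and 58.1% (39.1 to 75.5%) of receptor-low cells, with medians of 122.96 and 34.5 CPM. After thinning the shares were 90% and 71%. The ratio of Atf5 was 0.67 ± 0.84, and the chaperone Hspa5 was at -0.59 ± 0.92.

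Of 17 axon guidance and adhesion genes 14 were above 0, with a median of 1.81, and 2 were called higher and 0 lower, beside 58.5% above 0, 6.31% higher and 2.91% lower among all genes. Pcdh19, a protocadherin, was at 10 CPM or more in 26.7% of receptor-high and 0 of 31 receptor-low cells, where a count of 0 leaves room for up to 9.68%, again as 3 counts. Plxna4, a semaphorin co-receptor, was found in 33.3% and 6.45% of cells. Cntn4, an adhesion molecule of olfactory axons, had medians of 1378, 71.2 and 29.5 CPM in the high, intermediate and low classes without reaching the call at 5 days (1.81 ± 0.83). Nrp1, a semaphorin receptor, was found in 55% and 22.6% of cells (1.96 ± 1.00). Presynaptic genes (median 0.62, 1 of 9 higher, 0 lower), cilia genes (0.81, 0 of 12 higher, 1 lower, the transport protein Ift88) and other transcription factors of precursors (0.19, 0 of 7 higher, 1 lower, St18) were closer to the median of all genes. Ift88 was found in 51.7% and 54.8% of high and low cells. Its call was lost with means of log2 values (-0.34) and with libraries of 2000 or more genes (-0.95).

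**Figure D4:**
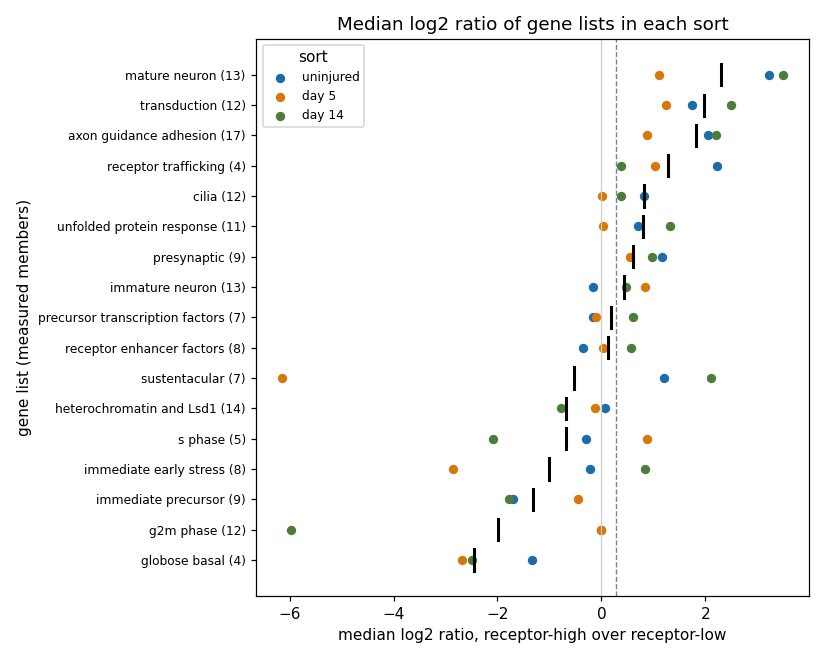
Median log2 ratio, receptor-high over receptor-low, of each gene list with 4 or more measured members, with a point for each sort and a bar for the list's median over the mean ratios. The dashed line is the median of all 7812 genes, 0.29; mature neuron and transduction genes lie to its right in each sort and globose basal and immediate precursor genes to its left, while sustentacular, S phase and stress lists differ in direction between sorts.

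Outside the lists, genes were named by size among called genes with a mean of at least 50 CPM in the higher class and at least 30% of its cells at 10 CPM. Of such genes called higher, the 12 with the largest ratios were Osbpl5, Ptpdc1, Ap1g1, Pappa, Atxn1, Ipo13, Brdt, Nfat5, Lrif1, Gca, Gadl1 and Etl4. Ptpdc1, a phosphatase linked to cilia, was the most widespread of them, with medians of 169.5 CPM in receptor-high, 79.4 CPM in intermediate and 0 CPM in receptor-low cells. It was found in 65% (51.6 to 76.9%) and 9.68% (2.0 to 25.8%) of high and low cells, at a ratio of 5.64 ± 2.22. Osbpl5, a lipid transfer protein, followed with 46.7% and 12.9% of cells (5.82 ± 2.31). The other 10 genes were found in 30% to 45% of receptor-high and 3.23% to 22.6% of receptor-low cells, and their median was 0 or close to 0 in both classes.

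Of the 63 such genes called lower, those with the lowest ratios included Adss, Slc25a10, Mss51, Ezr, Scg2, Cbfa2t2, Sdc4, Eif2c1, Cacul1, Btg2 and Polr2b. Adss, an enzyme of adenine nucleotide synthesis, was found in 3.33% of receptor-high and 41.9% of receptor-low cells (-6.63 ± 1.03). Scg2, a secretory granule protein, and Ezr, which links actin to the membrane, were found in 10% against 48.4% and in 6.67% against 41.9% of cells. The other 8 were found in 32.3% to 48.4% of receptor-low and 3.33% to 26.7% of receptor-high cells, closest for Polr2b with 32.3% and 26.7%. Btg2 went from -3.27 to -1.03 with receptor-low cells below 10 CPM, where its call was lost. Baz1a, a chromatin remodelling subunit picked after its values were seen, had medians of 0 CPM in receptor-high, 20.2 CPM in intermediate and 264.7 CPM in receptor-low cells, with a ratio of -2.67.

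Markers of sustentacular cells, the supporting cells of the epithelium, were found in both classes, with a summed level of 10 CPM or more in 24 of 60 receptor-high and 16 of 31 receptor-low cells. Of the lists for horizontal basal cells, Bowman's glands, immune cells, ensheathing glia and red blood cells, no gene reached 10 CPM in the mean, and the immune and erythroid sums had a median of 0 CPM in each class. Rgs5, a pericyte gene, was the 1 measured gene of the vascular list and was called lower (-4.89 ± 3.19), with 1.67% against 12.9% of cells. Sustentacular genes had ratios that differed by sort (medians of 1.21, -6.16 and 2.10), and their summed level ran from 0 to 1849 CPM in receptor-high and from 0 to 71847 CPM in receptor-low cells. At 5 days 2 receptor-low cells held Cyp2g1 at 7433 and 14030 CPM and had 0 CPM of Lhx2, Gng8, Neurog1 and Gap43. The first had Ebf2 at 1.76 and Sox11 at 23.8 CPM, while the second carried Ebf2 at 2231, Sox11 at 10033, Tex15 at 624 and Neurod1 at 434.4 CPM, so lineage and sustentacular genes stood together in it. Without these 2 cells 6.84% of measured genes were called higher and 2.84% lower, and the median ratio was -1.28 for immediate precursor genes and 2.23 for mature neuron genes. Btg2 (-1.39), Calb2 (2.82) and Cnga2 (1.82) were then no longer called.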

How the data were processed

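Polyadenylated RNA of single cells was measured in 138 Neurog1-eGFP cells of 469 in the series, and 119 of the 138 passed the gene filter. The authors deposited a table of signal (estimated fragments per gene, scaled to nearly equal totals per cell) and a table of FPKM values, per the file headers and their values. FastQC, STAR 2.5.2a, Cufflinks 2.2.1, Cuffnorm and build mm9 are named in the submitters' processing notes, with no roles. The annotation is not given in the sources used here. Since 99.9% of nonzero signal values were not whole, no count test was used.

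From the signal, CPM, classes, shares and ratios were computed with Python 3.11.15, pandas 2.3.3, numpy 2.4.6 and scipy 1.17.1, after leaving out 27 entries with names altered into dates. Fragments per cell were recovered as whole multiples of the smallest step (tolerance 0.02 of a step; a median of 92.2% of values were whole). The ratios and the step were tested on simulated data, where the step was recovered and the call rule also called unchanged genes, as stated in the report. A gene was measured at a mean of at least 10 CPM over both classes, and 493 of 7812 measured genes were called higher and 227 lower. Pseudocount, filters, limits, averaging, table, sorts and cells were varied, as given in the closing section. Genes named were Lhx2, Ebf2, Gng8, list members and, outside the lists, the 12 highest and 12 lowest ratios by the stated rule, which left out Olfr, Gm, Rik and mitochondrial symbols. Of these, 1 gene is not reported here. The classes and lists were chosen with earlier results of these data known. Genes described as picked after their values were seen are exceptions to the rule.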

Additional observations from a re-analysis of the deposited data

Results flagged for a closer look

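In groups of 4 to 10 cells, 16 group and gene (or depth) combinations were checked for a cell far from the others, and 5 held one. The limit used marks about 1 in 20 groups by chance for normally distributed values, which these sparse values with many zeros are not, so the 5 are not read against that rate. In the 10 uninjured receptor-low cells, 1 cell had Gap43 at 1850 CPM (the next 814 CPM), 1 had Tex15 at 33015 CPM (the next 12159 CPM) and 1 had Omp at 1888 CPM (the next 97.5 CPM). In the 7 receptor-low cells at 14 days, 1 cell had Gap43 at 2206 CPM (the next 236.4 CPM), and 1 had Omp at 2.30 CPM while the other cells were at 0, where any value above 0 is marked. Values of single genes in single cells spread widely, and no cause was tested.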

How the results depend on the processing

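The share of measured genes that was called depended strongly on the settings. Against 6.31% higher and 2.91% lower, a pseudocount of 10 CPM gave 3.25% and 1.6%, a filter at 50 CPM gave 4.06% and 2.88%, no filter gave 4.90% and 1.83%, means of log2 values gave 2.28% and 1.79%, and pooling cells over sorts gave 22.1% and 21.1%. Leaving out 1 sort, so that the call needed only 2 sorts, gave 12.7% to 16.6% higher and 7.68% to 9.02% lower. The run without the 5-day sort had the most higher calls, and the cause of that was not tested. With receptor-high cells of 5000 CPM or more, 4.89% were lower. Without Omp-positive receptor-high cells 3.36% were higher and 4.28% lower, so lower calls outnumbered higher ones, and the medians were 0.14 for transduction and 0.14 for mature neuron genes, with Cnga4 at -0.43 and Pde4a at -0.29. The transduction median was 1.33 with a pseudocount of 10 CPM and 1.29 with means of log2 values. The immediate precursor median was -3.33 with receptor-high cells of 5000 CPM or more and -0.49 with receptor-low cells below 10 CPM. The enhancer factor median was -0.35 with receptor-high cells of 5000 CPM or more. Among receptor-high cells with Tex15 below 100 CPM, an alternative chosen after seeing the data, 5.03% of genes were lower and the immediate precursor median was -3.11. Limits of 5000 and 10 CPM put 27.7% of cells in the receptor-high and 17.6% in the receptor-low class. Apart from these, the cause of each shift was not tested. The median of all genes moved between -0.09 and 0.56 over the settings. CPM of the sum without Olfr genes, also chosen after seeing the data, left the mature neuron median at 2.30. Of 54 called genes named in the text or its lists, 15 were called in each of 17 alternatives, and 2 of 918 values had the opposite sign. A called gene had the same sign in each sort. Leaving out a sort or changing the pseudocount or filter could therefore not reverse it, and the low count of reversals is not a measure of stability. No paired analysis was possible because the sorts share no replicate numbers and no animal is named. With 7 to 22 cells per class and sort, genes found in few cells are the least certain.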
